A study of Homo sapiens with 8 samples.

Results

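The time in culture was compared in parental 786-O cells, by setting the arrays taken at 48 h against those taken at 24 h. All samples titled as parental were chosen, which gave 4 of the 8 arrays of the series: DMSO for 24 h, DMSO for 48 h, PT2399 at 2 uM for 24 h and PT2399 at 2 uM for 48 h. Each 48 h array was matched with the 24 h array of the same treatment, so that every gene had 1 time difference in DMSO and another in PT2399 that shared no array. 786-O is an established clear cell renal carcinoma line whose VHL gene is inactivated. VHL normally tags HIF alpha proteins for destruction, so HIF2a is active in these cells. PT2399 blocks the binding of HIF2a to ARNT, its dimer partner, and DMSO was the solvent control. All cells were grown in DMEM with serum. The growth protocol, worded alike for every sample, speaks of null cells, so the genotype was taken from the titles. The other 4 arrays held cells labelled HIF2a null, made by CRISPR and, per the series' design text, studied in an experiment of their own. Their DMSO arrays at 24 h and 48 h served here as an outside comparison, in which genotype and experiment cannot be told apart. The labels say nothing of replicate cultures, so how far the spread between these arrays is technical cannot be told. In the parental fit a p-value weighs a gene's time difference against the gap between its differences in PT2399 and in DMSO. That gap is pooled in part over genes. The p-value rests on no replicate cultures of the same treatment and time.

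As cells stay in a dish, they grow towards contact with each other, and the medium loses nutrients and gains secreted factors. Contact, cell shape and tension act through the Hippo pathway on YAP and TAZ, which bind DNA through TEAD factors. Sterol levels act through SREBP factors on the enzymes of cholesterol synthesis, and growth signals act through MYC on the genes that build ribosomes. The labels do not give cell density, medium changes or when the drug was added relative to plating, so time, density and length of treatment cannot be told apart within a treatment.

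Values are log2 differences of the deposited linear probe set intensities, 48 h minus 24 h, so that 1 is a doubling. Of 18417 genes, the 11050 with a mean over the 8 arrays at or above an intensity of 118 were compared. The mean intensity of an array lay between 436.9 and 462.8. The renal tubule markers PAX8, CDH6, KRT8, KRT18 and VIM all passed this limit, with intensities from 1217 to 7909 on the parental arrays. Of a longer list of renal tubule genes, 12 of 20 measured passed it. The endothelial markers PECAM1, CDH5, VWF, KDR and TEK (25.8 to 93.1) and the leukocyte markers PTPRC, CD3D, CD3E, CD14 and LYZ (13.4 to 179) were under it as means over the 8 arrays. CD14 exceeded 118 on 3 parental arrays, at 129, 179 and 133. CD68, a lysosomal protein used as a macrophage marker, passed the limit, at 936 to 1252 on the parental arrays. The PT2399 24 h array stood apart from the other parental arrays. Its median intensity was 133.8 against 112.4 to 113.5, and its correlation with them across genes was 0.95 to 0.963 against 0.985 to 0.989 among the others. It enters every time difference in PT2399 and none in DMSO, so the DMSO values below are the values without it. The part of that array in the PT2399 differences was not tested. Of the null arrays, the one with PT2399 for 48 h stood further apart. Its correlation with the other null arrays was 0.777 to 0.831, against 0.94 to 0.983 among those. Its correlation with the parental arrays was 0.711 to 0.726, against 0.823 to 0.875 for the other null arrays. It enters every null PT2399 value below, and its part in them was not tested.

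The time differences were small for most genes and wider in PT2399. Their SD over genes was 0.205 in DMSO and 0.357 in PT2399, with medians of 0.00 and -0.02. In DMSO 65 genes were at least 1.5-fold higher at 48 h and 103 at least 1.5-fold lower. In PT2399 these counts were 295 and 853. The treatments had 26 of the higher genes in common, 40% of those in DMSO and 8.81% of those in PT2399. They had 51 of the lower genes in common, 49.5% and 5.98%. Those 26 genes were 0.235% of all genes compared and those 51 were 0.462%. At the 2-fold limit 2 genes were higher in both treatments (0.0181% of all) and 8 were lower in both (0.0724%). Only CDC42BPG, a kinase that acts downstream of CDC42, and KRTAP19-5, a keratin-associated protein, passed 1.5-fold in opposite directions, at 0.62 and 0.70 in DMSO and -0.68 and -0.59 in PT2399. Across the 11050 genes the DMSO and PT2399 differences correlated at r = 0.24, given as a description, since the genes were read on the same 4 arrays.

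With a treatment term and 1 residual degree of freedom, limma called no gene. That degree of freedom is the gap between the time differences in PT2399 and in DMSO. Any effect of the drug on the time difference therefore enters the error, as does the PT2399 24 h array. A gene that moved alike in both treatments has a smaller SE. The share past an adjusted p of 0.05 was 0% of 11050, with 805 genes at an unadjusted p under 0.05. Of these, 334 were higher at 48 h (3.02% of all) and 471 lower (4.26%). The count depended on the settings: a single limma model over all 8 arrays also called 0, with 92 at an unadjusted p under 0.05, while an intensity trend with robust shrinkage called 310, a stricter filter 15, median centring 13 and an offset of 16 called 3. ANKRD1, MMP7 and CLDN2 shared the lowest limma adjusted p, 0.0922. The differences below are given as values, and the word higher or lower describes these arrays.

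**Figure D1:**
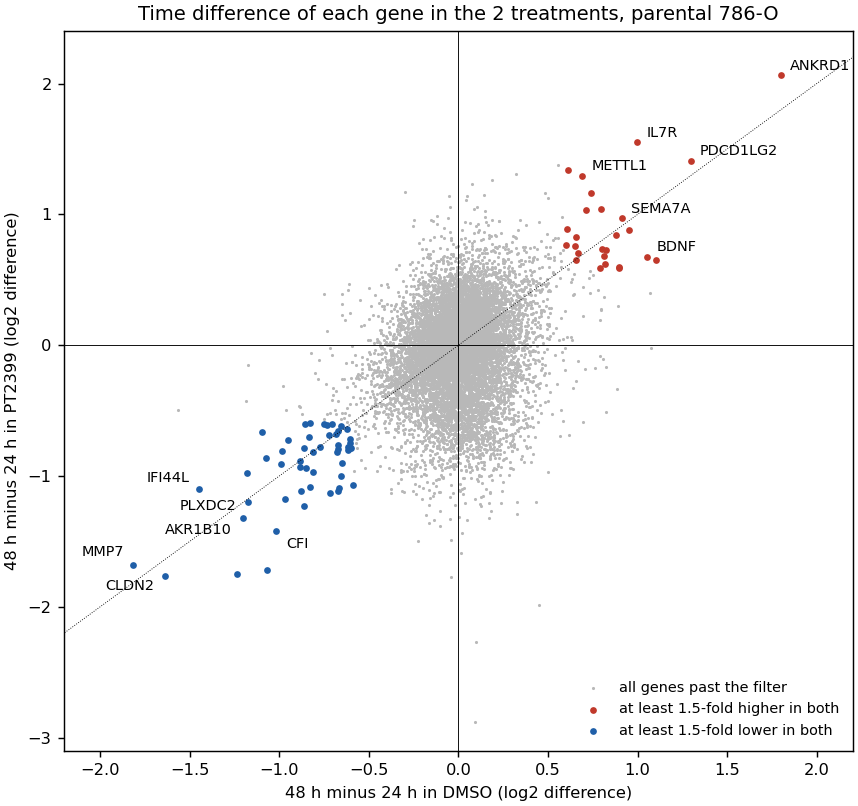
Each point is 1 gene past the intensity limit, with its log2 difference of 48 h minus 24 h in DMSO on the x axis and in PT2399 on the y axis. Red points are the 26 genes at least 1.5-fold higher in both treatments and blue points the 51 at least 1.5-fold lower. The dotted line marks equal differences, and the grey cloud is taller than it is wide, with an SD of 0.357 in PT2399 against 0.205 in DMSO.

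ANKRD1 was the gene with the largest difference shared by both treatments. It encodes an ankyrin repeat protein of muscle and stressed cells that is widely used as a readout of YAP and TAZ. In DMSO the array at 24 h read 105 and that at 48 h read 366, while PT2399 gave 86.8 and 363. The 48 h levels of both treatments nearly coincided, and both lay above both 24 h levels. The differences were 1.80 and 2.06, a mean of 3.82-fold (log2 1.93, SE 0.14, limma adjusted p = 0.0922). PDCD1LG2, the PD-1 ligand PD-L2, went from 80.8 to 199 in DMSO and from 62.3 to 166 in PT2399, a mean log2 difference of 1.35 (SE 0.13, limma adjusted p = 0.231). IL7R, the alpha chain of the interleukin 7 receptor, went from 252 to 504 in DMSO and from 160 to 470 in PT2399. Its PT2399 24 h level was the lowest of the 4, and the differences were 1.0, just under the 2-fold limit, and 1.55.

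Other higher genes followed in rank. NEXN, the actin-binding protein nexilin, had intensities of 511 and 988 in DMSO and 423 and 780 in PT2399, differences of 0.95 and 0.88. SEMA7A, a membrane-anchored semaphorin, had 213 and 400 in DMSO and 144 and 282 in PT2399, differences of 0.91 and 0.97. FRMD6, a FERM domain protein placed upstream in the Hippo pathway, had 326 and 601 in DMSO and 298 and 536 in PT2399. In each of these 3 genes both 48 h arrays exceeded both 24 h arrays, which their ranking favours and 18.2% of all genes showed. Their time differences were nearly the same with and without the drug. CDC42EP3, an effector of CDC42, stood at 0.80 in DMSO and 0.74 in PT2399. ADAMTS1, a secreted metalloprotease, stood at 0.82 and 0.73. GPRC5A, an orphan receptor, stood at 0.80 and 1.04, and AMIGO2, an adhesion protein, at 0.65 and 0.83. BDNF, a neurotrophin, went from 114 to 236 in DMSO and from 165 to 263 in PT2399.

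The rest of the 15 leading higher genes were ELL2, MARCHF3, METTL1 and FAM216A. ELL2, an elongation factor of RNA polymerase II, had differences of 0.74 in DMSO and 1.16 in PT2399. MARCHF3, a membrane-bound ubiquitin ligase, had 0.71 and 1.03. METTL1, the methyltransferase that makes 7-methylguanosine in tRNA, had 0.69 and 1.30, and FAM216A had 0.67 and 0.71. Over all 26 higher genes the median difference was 0.81 in DMSO and 0.80 in PT2399. All 26 had both 48 h arrays above both 24 h arrays, which the limit of 1.5-fold favours and which 18.2% of all genes showed. Of the 26, 23 were protein coding, and the other 3 were the small nucleolar RNAs SNORA41 and SNORA2B and the microRNA gene MIR106B. Just inside the limit were THBS1 and ENC1, both with a smaller difference of 0.59, and just outside it were TUFT1, ETS2 and UAP1 at 0.58.

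MMP7 and CLDN2 led the lower genes. MMP7, the secreted protease matrilysin, read 196 on the 24 h array and 55.9 on the 48 h array in DMSO, and 873 and 273 in PT2399. The PT2399 48 h array stood above the DMSO 24 h array, so the times overlapped when the treatments were not matched. Within treatments the differences were -1.81 and -1.68 (mean -1.75, SE 0.13, limma adjusted p = 0.0922). CLDN2, a claudin that forms cation pores in tight junctions of the proximal tubule, had 318 and 102 in DMSO and 1051 and 310 in PT2399. Its differences were -1.64 and -1.76 (mean -1.70, SE 0.13, limma adjusted p = 0.0922). For both genes the level was highest on the PT2399 24 h array and lowest on the DMSO 48 h array.

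The same order of arrays was seen in several other genes. AKR1B10, an aldo-keto reductase of retinal and other aldehydes, had 248 and 108 in DMSO and 621 and 249 in PT2399. CFI, the complement factor I protease, had 185 and 91.4 in DMSO and 453 and 169 in PT2399. C3, the central complement component, had 670 and 368 in DMSO and 1520 and 649 in PT2399. In all 3 the DMSO 48 h array was the lowest and the PT2399 24 h array the highest, while AKR1B10 alone overlapped between times, by 249 against 248. KCNJ16, an inward rectifier potassium channel subunit of kidney tubules, stood at -1.18 in DMSO and -0.97 in PT2399. ENPEP, the brush border aminopeptidase A, stood at -0.88 and -1.12. SLC7A7, a transporter of cationic amino acids, stood at -0.88 in both. SPP1, the secreted glycoprotein osteopontin, went from 3472 to 1924 in DMSO and from 5307 to 2770 in PT2399.

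PLXDC2, a plexin domain transmembrane protein, had differences of -1.18 in DMSO and -1.20 in PT2399. KLHL24, an adaptor of a cullin ubiquitin ligase, had -0.97 and -1.18. ACSM3, a mitochondrial medium-chain acyl-CoA synthetase, had -0.99 and -0.91, and MAPK10, the kinase JNK3, had -0.88 and -0.93. SEMA5B, a transmembrane semaphorin, went from 339 to 161 in DMSO and from 150 to 82.4 in PT2399. It was lower with the drug at both times, unlike the other leading lower genes. The near-identical aldo-keto reductase genes AKR1C1 and AKR1C3, whose probes may share transcripts, stood at -1.07 and -1.23 in DMSO and -1.72 and -1.75 in PT2399.

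Over all 51 lower genes the median difference was -0.81 in DMSO and -0.82 in PT2399. All 51 were protein coding, and 43 had both 48 h arrays below both 24 h arrays, as 19.8% of all genes did. Several not covered by the rule for named genes were picked after their values were seen. DPP4, a brush border peptidase, went from 2078 to 1303 in DMSO and from 2653 to 1680 in PT2399. SLC4A4, the sodium bicarbonate cotransporter of the proximal tubule, went from 978 to 614 and from 1559 to 901. CA2, carbonic anhydrase II, went from 1480 to 816 and from 2155 to 1419. ALDH1A1, a retinal dehydrogenase, went from 1460 to 931 and from 2756 to 1475. In DPP4, SLC4A4 and CA2 each 48 h array lay below both 24 h arrays, whereas in ALDH1A1 the PT2399 48 h array lay just above the DMSO 24 h array. Just inside the limit were TSPAN12 and FCAMR, both with a smaller difference of -0.59, and just outside it were RNF144B, CPLANE2, MAF and BDKRB2 at -0.58.

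**Figure D2:**
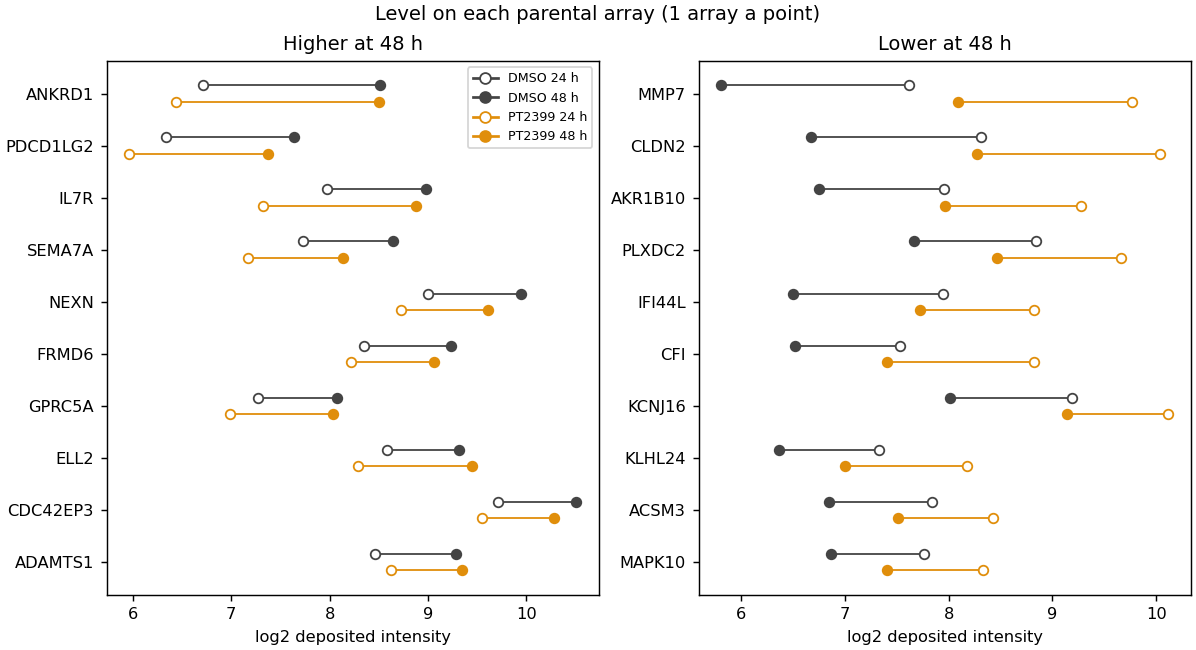
Log2 intensity (x axis) on each parental array for the 10 leading higher and the 10 leading lower genes, with open circles for 24 h, filled circles for 48 h, grey for DMSO and orange for PT2399. Each point is 1 array, and a line joins the arrays of 1 treatment. In the left panel the DMSO and PT2399 lines largely overlap, whereas in the right panel the PT2399 lines sit at higher levels, as for MMP7 at 873 and 273 against 196 and 55.9.

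Most of the genes that were lower at 48 h were also higher with PT2399 than with DMSO. The treatment difference, averaged over the times, gives equal weight to each time and did not enter the choice of genes. Of the 51 lower genes, 46 were higher with PT2399 and 5 lower, with a median of 0.52. Among all genes 54.7% were higher with PT2399 and 45.3% lower, with a median of 0.02. On the 48 h arrays alone, which leave out the PT2399 24 h array, 44 of the 51 were higher and 7 lower, with a median of 0.50. All genes there divided into 51% higher and 49% lower. MMP7 stood at 2.22, CLDN2 at 1.66 and AKR1B10 at 1.26 in the treatment difference averaged over the times. The 5 exceptions were NDRG1, a hypoxia-responsive gene, at -2.36, DDIT4, an inhibitor of mTORC1, at -1.22, SEMA5B at -1.07, ANXA4 at -0.25 and KIAA1671 at -0.18. Of the 26 higher genes, 19 were lower and 7 higher with PT2399, and their median was -0.17. On the 48 h arrays alone these counts were 18 and 8, and the median was -0.08. This count was chosen after the values of single genes had been seen, and no test was made of it.

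**Figure D3:**
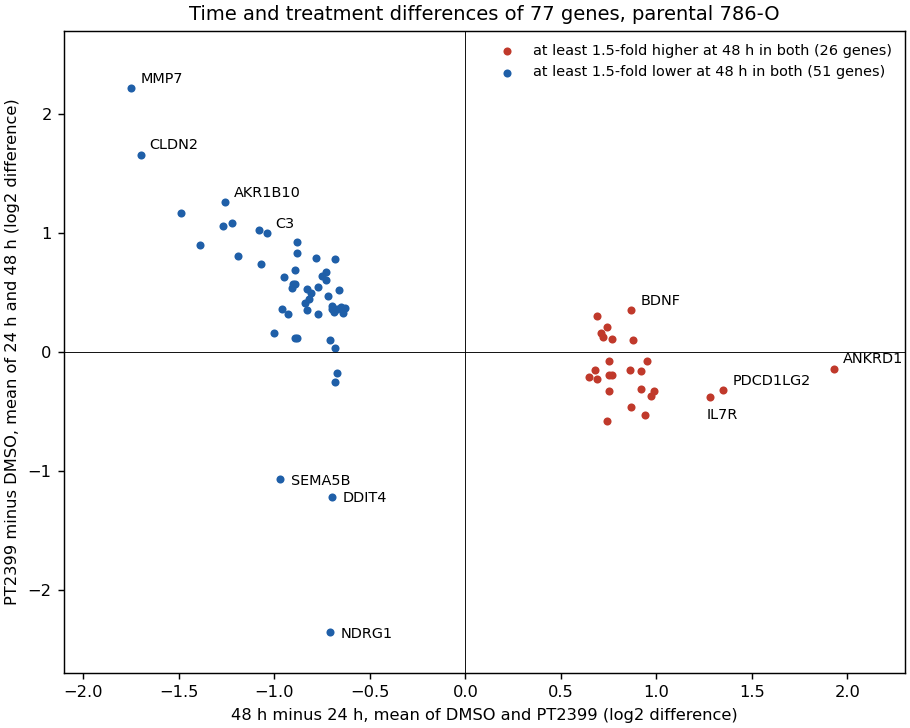
Each point is 1 of the 77 genes at least 1.5-fold the same way with time in both treatments, with the mean time difference on the x axis and the mean PT2399 minus DMSO difference on the y axis, both in log2. Of the 51 blue points, 46 lie above 0 on the y axis, and of the 26 red points 19 lie below it.

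The HIF2a-null DMSO arrays gave a time difference from another experiment. Across all genes the SD of that difference was 0.482, and 52.7% of genes were higher and 47.3% lower at 48 h. Of the 26 genes higher in parental cells, 19 were higher in null DMSO cells, with a median of 0.38. PDCD1LG2, BDNF and MARCHF3 were at 0.71, 0.71 and 0.73 there, and ANKRD1 was at 0.46, from 376 to 518. Of the 51 lower genes, 9 were lower in null DMSO cells and 42 were higher, with a median of 0.20. CCNG2 (-0.98), SEMA5B (-0.77) and SCD (-0.72) were at least 1.5-fold lower there. MMP7 was at 0.47, IFI44L at 0.91 and CLDN2 at 0.05. In the null PT2399 pair, which includes the outlying 48 h array, PDCD1LG2, BDNF and MARCHF3 were at -0.16, 0.77 and -1.11. There ANKRD1 was at 0.25, CCNG2 at 0.16, SEMA5B at -0.37 and SCD at -0.68. MMP7 was at -0.12, IFI44L at -0.44 and CLDN2 at -0.09 in that pair. The counts over the 26 and the 51 genes hold for null DMSO cells alone. The DMSO differences of the genotypes correlated at r = -0.26 across genes, and the parental PT2399 difference correlated with the null DMSO difference at r = 0.49. These are descriptions over genes read on the same arrays.

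Gene lists were written from general knowledge, but with earlier results of these data known, so they are no outside support. Each was then read by the number of members past the intensity limit that were higher, or lower, at 48 h in both treatments. Over all genes compared, 26.9% were higher in both and 30% lower in both, and the median of the mean difference was -0.02. No member of any list passed limma's adjusted threshold.

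Every measured gene of the ribosome biogenesis list was higher at 48 h in both treatments. The list had 28 members past the limit, factors that transcribe, process and assemble ribosomal RNA in the nucleolus, and all 28 were higher. The median difference was 0.24 in DMSO and 0.41 in PT2399. Of the 28, 12 had an unadjusted limma p under 0.05, where 3.02% of all genes had one with the higher level at 48 h. Since the list was written with earlier results known, this count is a description. BOP1, a factor of large subunit assembly, went from 298 to 442 in DMSO and from 266 to 403 in PT2399. RRS1, another large subunit factor, went from 280 to 395 and from 201 to 361. NOP2, a nucleolar methyltransferase of ribosomal RNA, went from 565 to 804 and from 589 to 784, and MYBBP1A, a nucleolar binding partner of MYB, stood at 0.50 and 0.47. In these 4 genes the 48 h levels of both treatments exceeded both 24 h levels, which their choice by the same differences favours. Among all genes 18.2% showed it. MYC, the factor that drives many of these genes, had 723 and 1041 in DMSO and 709 and 1038 in PT2399, differences of 0.53 and 0.55. The genes of ribosomal proteins themselves, the building blocks of the subunits, stood near 0, with 12 of 27 higher in both, 4 lower and medians of 0.09 and 0.00. In null DMSO cells 20 of the 28 biogenesis genes were higher and 8 lower, with a median of 0.17, and the median in null PT2399 cells was -0.03.

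MYC binds the E-box CACGTG, which reads the same on both strands. Of the 23 ribosome biogenesis genes with a promoter in the RefSeq table (GRCh38.p14), 10 had this motif within 250 bases before to 50 after the start, 43.5% against 7.43% of 27305 promoters and 10.6% of those of the genes compared. The lysosome list below, which was lower with time, held it in 7 of 20, or 35.0%. A match describes the letters of the window and no binding. The 250 bases before the start are shown for 2 such genes, with the E-box in capitals, chosen after the search. UTP20 (chr12:101279855-101280104, plus strand) and UTP4 (chr16:69132399-69132648, plus strand) encode parts of the complex that processes small subunit RNA.
UTP20: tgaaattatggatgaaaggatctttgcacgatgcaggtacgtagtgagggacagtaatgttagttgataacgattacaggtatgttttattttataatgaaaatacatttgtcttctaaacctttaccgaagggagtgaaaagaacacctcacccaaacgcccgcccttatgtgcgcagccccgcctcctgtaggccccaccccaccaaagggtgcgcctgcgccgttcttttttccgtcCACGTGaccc
UTP4: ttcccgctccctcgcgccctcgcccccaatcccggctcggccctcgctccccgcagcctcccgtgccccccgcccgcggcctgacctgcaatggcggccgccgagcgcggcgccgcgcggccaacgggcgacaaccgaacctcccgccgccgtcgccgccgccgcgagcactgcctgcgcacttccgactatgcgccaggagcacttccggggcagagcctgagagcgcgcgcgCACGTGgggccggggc
The motif begins 10 bases before the start in UTP20 and 16 before it in UTP4. UTP20 stood at 0.27 in DMSO and 0.77 in PT2399, and UTP4 at 0.19 and 0.21.

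Targets of YAP and TAZ were mostly higher at 48 h. Of 23 members past the limit, 15 were higher in both treatments and 2 lower, with medians of 0.26 in DMSO and 0.25 in PT2399. After ANKRD1, GADD45A, a stress-induced cell cycle inhibitor, had the next shared difference, from 404 to 712 in DMSO and from 475 to 728 in PT2399. AJUBA, a LIM protein that binds LATS kinases, went from 653 to 928 and from 557 to 845. TGFB2, the cytokine TGF-beta 2, went from 2067 to 2789 and from 2040 to 2791. In these 3 genes the 48 h levels of both treatments lay above both 24 h levels, as in 18.2% of all genes. Their choice by the same differences favours this. CCN1, a matricellular protein and much-used target, stood at 1.07 in DMSO and 0.40 in PT2399, while its relative CCN2 stood at 0.23 and -0.02. These CCN genes were picked after their values were seen. Of the 23 members, 9 had an unadjusted limma p under 0.05, all with the higher level at 48 h, against 3.02% of all genes. In null DMSO cells 17 were higher and 6 lower, with a median of 0.22, and the median in null PT2399 cells was -0.15.

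TEAD factors recognise GGAATG, or CATTCC on the other strand. This motif was in 5 of 15 list promoters (33.3%), 4 of 13 promoters of the 26 higher genes (30.8%) and 5 of 42 of the 51 lower genes (11.9%), against 14% of all promoters and 10.5% of those of the genes compared. ANKRD1 counts in both of the first groups. In the other lists the share ran from 0% to 42.9%. The highest was the renal tubule list, with 3 of 7, which had more members lower than higher at 48 h. The promoters of ANKRD1 (chr10:90921088-90921337, minus strand) and NUAK2 (chr1:205321746-205321995, minus strand), a kinase and list member at 0.73 in DMSO and 0.40 in PT2399, are shown because each held the motif at 2 places, in capitals.
ANKRD1: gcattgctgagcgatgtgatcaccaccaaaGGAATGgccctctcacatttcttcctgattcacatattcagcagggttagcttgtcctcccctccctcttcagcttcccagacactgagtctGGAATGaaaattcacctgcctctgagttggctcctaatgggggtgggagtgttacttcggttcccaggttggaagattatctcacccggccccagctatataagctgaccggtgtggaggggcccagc
NUAK2: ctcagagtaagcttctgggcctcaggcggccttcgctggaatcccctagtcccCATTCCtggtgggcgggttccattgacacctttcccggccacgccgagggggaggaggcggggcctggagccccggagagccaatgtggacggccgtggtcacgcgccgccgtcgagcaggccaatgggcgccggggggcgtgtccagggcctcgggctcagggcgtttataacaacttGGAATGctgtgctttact
In ANKRD1 the motifs begin 220 and 128 bases before the start, and in NUAK2 197 and 18 bases before it.

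Genes of cholesterol synthesis and uptake were lower at 48 h, to nearly the same extent with and without the drug. Of 19 members past the limit, 16 were lower in both treatments and 0 were higher in both, with medians of -0.36 in DMSO and -0.38 in PT2399. HMGCS1, the synthase that makes HMG-CoA, went from 1272 to 828 in DMSO and from 1759 to 1026 in PT2399. INSIG1, the protein that holds SREBP in the endoplasmic reticulum, went from 1239 to 787 and from 1539 to 1005. MSMO1, a methylsterol oxidase, went from 2715 to 1864 and from 2885 to 2133, and DHCR7, the last enzyme of one branch, from 1067 to 795 and from 1190 to 873. Both 48 h arrays were below both 24 h arrays in all 4 genes. Their choice by the same differences favours this, and 19.8% of all genes showed it. Of the 19 members, 9 had an unadjusted limma p under 0.05, all with the lower level at 48 h, against 4.26% of all genes. In null DMSO cells the median was 0.01, with 10 members higher and 9 lower, and in null PT2399 cells it was 0.04. The related list of fatty acid synthesis and lipid storage had 13 of 20 lower and 2 higher. SCD, the stearoyl-CoA desaturase, led it with 1528 and 955 in DMSO and 2499 and 1417 in PT2399, followed by FADS1 at -0.35 and -0.28. GPAM, an enzyme of glycerolipid synthesis, was higher in both, at 0.36 and 0.62.

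The sterol element TCACNCCAC was in 1 of 17 promoters of the cholesterol list (5.88%) and 1.15% of all promoters, on either strand. In the other lists the share ran from 0% to 7.14%, with 1 of 17 in the p53 list as well. A single match therefore does not set the cholesterol list apart. The match of that list was in SREBF2 (chr22:41832855-41833104, plus strand), the gene of the sterol-sensing factor SREBP2, and is shown in capitals. It begins 133 bases before the start.
SREBF2: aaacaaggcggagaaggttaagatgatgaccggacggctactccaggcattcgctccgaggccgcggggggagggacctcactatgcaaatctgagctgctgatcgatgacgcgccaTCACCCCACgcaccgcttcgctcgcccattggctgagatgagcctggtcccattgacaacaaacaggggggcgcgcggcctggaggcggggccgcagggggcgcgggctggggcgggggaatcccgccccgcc
SREBF2 itself had intensities of 867 and 676 in DMSO and 832 and 602 in PT2399, differences of -0.36 and -0.47. Both 48 h levels were below both 24 h levels.

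Interferon-induced genes likewise had no member higher at 48 h in both treatments. Of 29 members past the limit, 20 were lower in both and 0 higher in both, with medians of -0.27 in DMSO and -0.17 in PT2399. An unadjusted limma p under 0.05 was found for 9 of the 29, all lower at 48 h, against 4.26% of all genes. IFI44L, an interferon-induced protein, led with 246 and 90.2 in DMSO and 453 and 211 in PT2399. The other leading members had smaller differences: PSMB9, a subunit of the immunoproteasome, stood at -0.41 and -0.39, IFI6, an interferon-induced mitochondrial protein, at -0.39 and -0.36, and SAMD9, an antiviral factor, at -0.34 and -0.36. In null DMSO cells 23 members were higher and 6 lower, with a median of 0.51, the opposite direction, and the median in null PT2399 cells was 0.03. Whether the genotypes differ was not tested.

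The interferon-stimulated element GAAA, then any 2 bases, then GAAA again, on either strand, was in 13 of 24 list promoters (54.2%) against 3.65% of all. IFI44L (chr1:78620198-78620447, plus strand) and IFI6 (chr1:27672193-27672442, minus strand) are shown as leading members with more than 1 match, in capitals.
IFI44L: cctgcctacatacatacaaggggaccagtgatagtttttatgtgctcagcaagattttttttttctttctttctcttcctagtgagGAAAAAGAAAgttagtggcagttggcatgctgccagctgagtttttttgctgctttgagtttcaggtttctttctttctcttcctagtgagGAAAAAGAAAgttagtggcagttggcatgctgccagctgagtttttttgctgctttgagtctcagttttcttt
IFI6: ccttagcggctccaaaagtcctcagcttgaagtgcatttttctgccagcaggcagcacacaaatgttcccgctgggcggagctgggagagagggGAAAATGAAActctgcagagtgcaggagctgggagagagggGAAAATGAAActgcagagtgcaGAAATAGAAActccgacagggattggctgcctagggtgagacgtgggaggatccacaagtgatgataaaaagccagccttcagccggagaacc
IFI44L held it 164 and 73 bases before the start, and IFI6 held it at 3 places between 156 and 93 bases before it.

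Lists linked to slowed growth and to nutrient stores were lower at 48 h in most members. Of 20 genes of quiescence and growth arrest, 12 were lower in both and 1 higher. An unadjusted limma p under 0.05 was found for 6 of the 20, all lower at 48 h, against 4.26% of all genes. The medians were unequal, at -0.09 in DMSO and -0.37 in PT2399. The PT2399 medians include the outlying 24 h array, whose part in them was not tested. CCNG2, a cyclin of non-dividing cells, had 367 and 190 in DMSO and 452 and 274 in PT2399. TXNIP, an inhibitor of thioredoxin that responds to glucose, had 442 and 277 in DMSO and 559 and 258 in PT2399, and BTG1, an antiproliferative factor, stood at -0.41 and -0.85. The glucose sensing list had 7 of 12 lower and 2 higher, with medians of -0.08 and -0.32. It was led by HBP1, a repressor of transcription, at -0.72 and -0.69. ARRDC3, an arrestin family member and TXNIP relative, went from 2707 to 1821 in DMSO and from 898 to 592 in PT2399, a shift of like size from different starting levels. Of 26 lysosome and autophagy genes, 18 were lower and 2 higher, with medians of -0.14 and -0.16. NEU1, a lysosomal sialidase, stood at -0.38 and -1.13, GABARAPL1, an autophagosome protein, at -0.57 and -0.31, and ULK1, the kinase that starts autophagy, at -0.26 and -0.34. The p53 list had 11 of 21 lower and 3 higher, with medians of -0.10 and -0.22. GDF15, a stress cytokine, went from 213 to 134 in DMSO and from 471 to 221 in PT2399, while PLK2, a p53-induced kinase, stood at 0.73 and 0.51. CDKN1A, the cell cycle inhibitor p21, stood at -0.24 and -0.37.

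Cell cycle lists had larger medians in PT2399 than in DMSO, a difference that was not tested. Of 35 genes of G1/S and DNA replication, 17 were higher in both treatments and 0 lower in both, but the median was 0.02 in DMSO and 0.33 in PT2399. The 31 genes of G2/M and mitosis had 17 higher in both and 0 lower in both, with medians of 0.01 and 0.27. MKI67, the proliferation marker Ki-67, had 3061 and 3198 in DMSO and 2148 and 2770 in PT2399. CCND1, the G1 cyclin D1, had 2026 and 2137 in DMSO and 460 and 776 in PT2399. For both genes the DMSO arrays were close together and the PT2399 24 h array was the lowest. That array is the one with the higher median intensity of 133.8, and its part in these values was not tested. Replication-dependent histones, near-identical genes whose probes may share transcripts, had 28 of 32 higher and 1 lower, with medians of 0.17 and 0.19. Heat shock chaperones had 11 of 15 higher and 0 lower, with medians of 0.07 and 0.18.

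**Figure D4:**
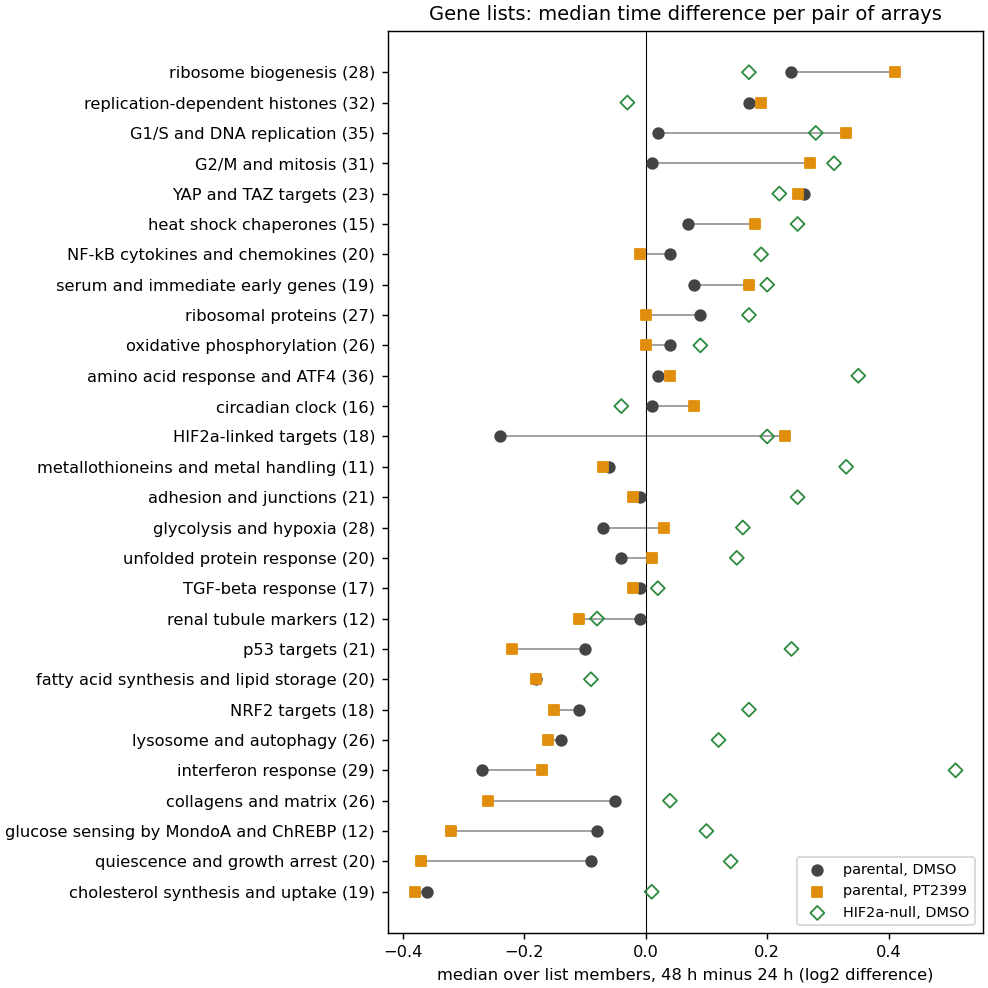
Median log2 difference of 48 h minus 24 h (x axis) over the members of each list past the intensity limit, whose number is in brackets, for lists with at least 10 such members. Grey circles are parental DMSO, orange squares parental PT2399 and open green diamonds HIF2a-null DMSO, each from 1 pair of arrays. Ribosome biogenesis lies at the top with 0.24 and 0.41, cholesterol synthesis at the bottom with -0.36 and -0.38, and the interferon list has its diamond at 0.51 on the other side of 0.

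Serum and immediate early genes were mixed, with 8 of 19 higher and 4 lower. FOSL1, an AP-1 subunit, went from 717 to 1094 in DMSO and from 432 to 1092 in PT2399, so the 48 h levels nearly coincided. EGR1, an immediate early zinc finger factor, went from 296 to 163 and from 394 to 229. Matrix genes had 14 of 26 lower and 4 higher, with medians of -0.05 and -0.26. THBS1, the matrix glycoprotein thrombospondin 1, was among the 4, from 2187 to 4068 in DMSO and from 2811 to 4234 in PT2399. NRF2 targets had 11 of 18 lower and 2 higher, led by the aldo-keto reductases above, and NQO1, a quinone reductase, stood at -0.24 and -0.16. The renal tubule list had 6 of 12 lower and 2 higher. CDH6, the kidney cadherin, went from 3618 to 2148 in DMSO and from 5915 to 3888 in PT2399, and PAX2, a kidney developmental factor, stood at -0.24 and -0.34.

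The HIF2a-linked list had medians of opposite sign in the treatments. Of 18 members past the limit, 5 were higher in both treatments and 6 lower in both, and the median was -0.24 in DMSO and 0.23 in PT2399. NDRG1 went from 3916 to 2553 in DMSO and from 810 to 465 in PT2399. STC2, a secreted glycoprotein, stood at 0.74 and 0.57, and PLAUR, the urokinase receptor, at 0.41 and 0.47. EPAS1, the HIF2a gene itself, had 1277 and 1010 in DMSO and 1519 and 1304 in PT2399, with the times overlapping across treatments. The glycolysis and hypoxia list had 8 of 28 lower and 4 higher, with DDIT4 in front, from 1786 to 1174 in DMSO and from 815 to 473 in PT2399.

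Most of the remaining lists had members on both sides. The ATF4 list had 13 of 36 higher and 9 lower, and the unfolded protein response 6 of 20 higher and 7 lower. NF-kB cytokines had 9 of 20 higher and 7 lower, with IL6, the cytokine interleukin 6, at 0.48 and 0.47 and SOD2, the mitochondrial superoxide dismutase, at -0.53 and -0.63. CCL20, a chemokine, went from 605 to 204 in DMSO and from 143 to 101 in PT2399, an unequal difference of -1.56 and -0.50. TGF-beta targets had 5 of 17 higher and 7 lower, adhesion and junction genes 7 of 21 higher and 9 lower, and oxidative phosphorylation 9 of 26 higher and 6 lower. Metallothioneins and metal handling had 3 of 11 higher and 4 lower. The circadian clock list had 5 of 16 higher and 3 lower, with CRY1, a clock repressor, from 455 to 641 in DMSO and from 435 to 603 in PT2399. Of the 20 endothelial and leukocyte genes 3 passed the limit, with 0 higher in both and 2 lower.

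**Figure D5:**
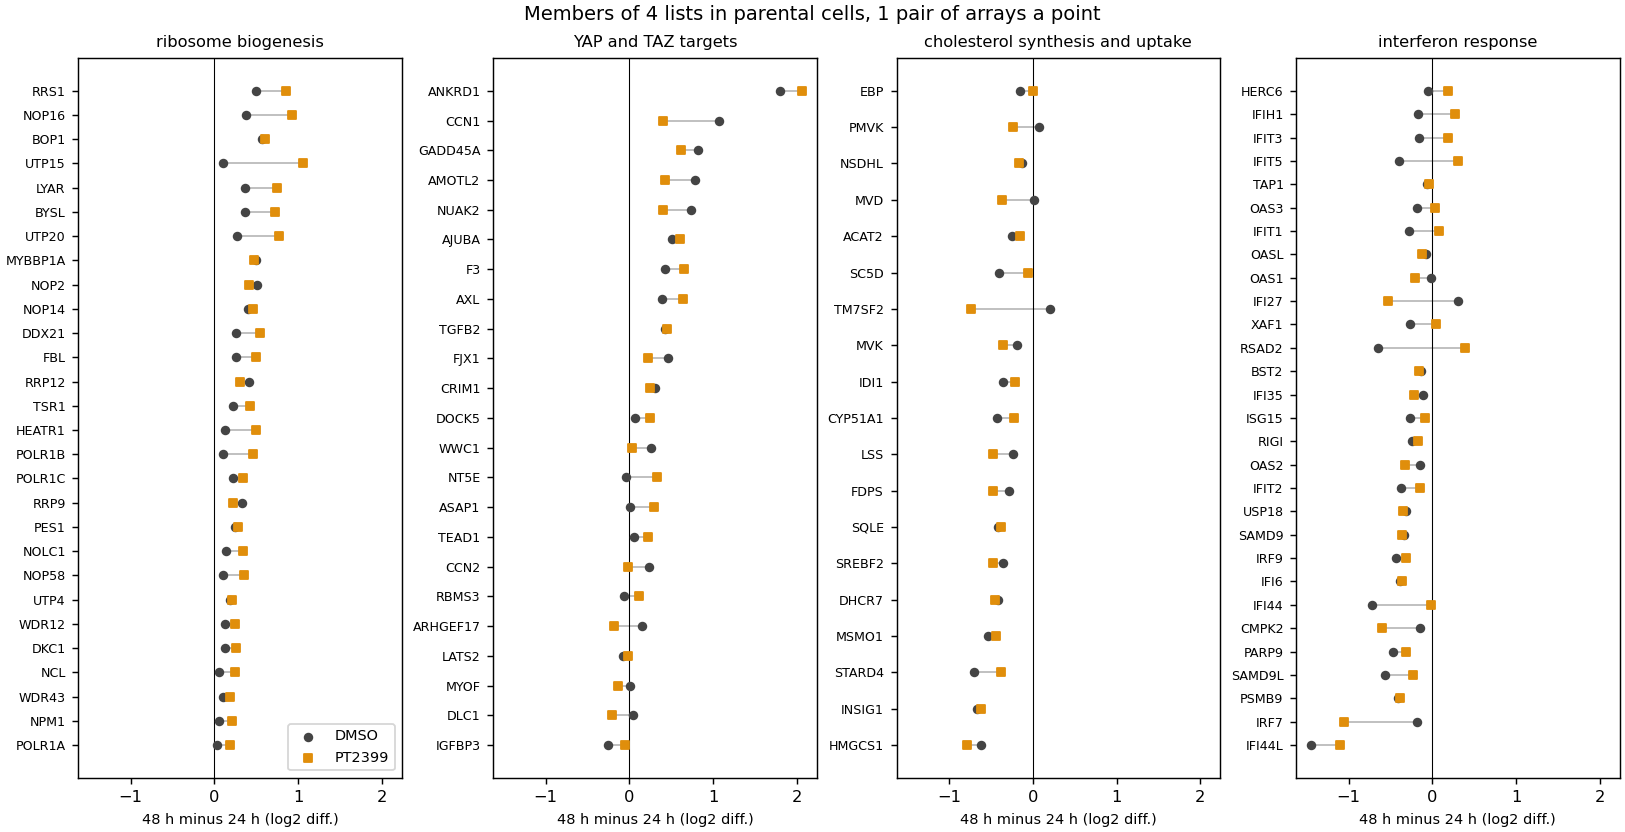
Log2 difference of 48 h minus 24 h (x axis) for each member past the intensity limit of 4 lists, with circles for DMSO and squares for PT2399, 1 pair of arrays each. All 28 ribosome biogenesis genes lie right of 0 in both treatments, 16 of 19 cholesterol genes lie left of it in both, and ANKRD1 stands far from the other YAP and TAZ targets.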

How the data were processed

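The authors deposited 1 linear intensity per probe set and array, per the file headers and values. Per the labels' protocols, RNA was extracted with Trizol and labelled with an Affymetrix whole-transcript kit. The sources used here do not state the background correction, summarisation or scaling. A log2 was taken, although the design had assumed log2 values. Of 33252 probe sets, 19460 named 1 gene by the platform annotation, and 19429 of these matched the GRCh38.p14 RefSeq table by Entrez identifier; 1754 named several and 12038 none, and were not used. A gene took its probe set with the highest mean. Genes under percentile 40 of the mean (6.88 in log2) were left out. The 4 parental arrays entered limma 3.58.1 (R 4.3.3) with a treatment and a time term, and p-values of 11050 genes were adjusted by Benjamini-Hochberg and read at 0.05. Genes named were the 15 highest and 15 lowest by the smaller of both treatment-matched differences, up to 4 members of each of 29 lists ranked likewise, and EPAS1, TXNIP, CCND1, MKI67 and CDKN1A. Small RNAs, locus names and near-identical families were left out of this rule. Members and lists were chosen with earlier results of these data known. On simulated data with 11050 genes, the fit called 5.2% of genes changed by 0.585 in log2, 67.2% at 1 and 95.2% at 1.5, and 8.3% of calls were unchanged genes. The changes were planted alike in both treatments, in equal numbers of each size, with no drug effect on any gene. These shares depend on how many changes were planted and do not carry over to the real arrays. There ANKRD1, at a mean of 1.93, was not called. Alternatives changed the model, variance shrinkage, array scaling, offset, filter and probe set choice.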

Additional observations from a re-analysis of the deposited data

Results flagged for a closer look

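Of 136 genes looked at, those of the rule for named genes with CDC42BPG and KRTAP19-5, 29 had both null pairs, in DMSO and in PT2399, in the direction opposite to both parental pairs, as did the medians of 6 lists. The same count was not made over all genes, so it is not known whether 29 exceeds the general share. The null PT2399 pair includes the outlying 48 h array described above. None of these differences between the genotypes was tested, and genotype and experiment cannot be told apart. Values here are those of null DMSO cells.

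Among the 30 leading genes there were 3. ELL2 was at -0.22 against 0.74 and 1.16 in parental cells, KLHL24 at 0.52 against -0.97 and -1.18, and SPP1 at 0.08 against -0.85 and -0.94. Of the list members that were lower at 48 h in parental cells, PSPH, an enzyme of serine synthesis, was at 1.44, CDKN1A at 0.79, BTG1 at 0.73, DDIT4 at 0.61, SLC11A2, an iron transporter, at 0.55, YPEL5 at 0.54 and PSMB9 at 0.54. DNAJB9, a chaperone of the endoplasmic reticulum, was at 0.43, ZMAT3, a p53 target, at 0.32, HBP1 at 0.28, INSIG1 at 0.20 and GDF15 at 0.19. EGR1 was at 0.12, TXNIP at 0.11, NEU1 at 0.11 and PDIA4, a protein disulfide isomerase, at 0.05. Of the list members that were higher in parental cells, DBP was at -0.41 and CIART at -0.24, both clock genes, and AURKB, a mitotic kinase, was at -0.26. ATP5MC1, a subunit of ATP synthase, was at -0.20, CCNE1, cyclin E1, at -0.14, PLAUR at -0.11, HSPH1, a heat shock protein, at -0.10, AJUBA at -0.07, HK1, a hexokinase, at -0.05 and THBS1 at -0.01.

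By list median, the interferon response was at 0.51 in null DMSO cells and 0.03 in null PT2399 cells, against -0.27 and -0.17 in parental cells. Lysosome and autophagy was at 0.12 against -0.14 and -0.16, NRF2 targets at 0.17 against -0.11 and -0.15, and glucose sensing at 0.10 against -0.08 and -0.32. Cholesterol synthesis was at 0.01 against -0.36 and -0.38, and the circadian clock at -0.04 against 0.01 and 0.08.

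Within parental cells the HIF2a-linked list had a median of -0.24 in DMSO and 0.23 in PT2399, opposite directions on 1 pair of arrays each. CDC42BPG was at 0.62 in DMSO and -0.68 in PT2399, and KRTAP19-5 at 0.70 and -0.59. These differences were not tested.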

How the results depend on the processing

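The count of genes called by limma moved with the setting. It was 310 with an intensity trend and robust shrinkage (152 higher, 158 lower), 13 with median centring (3 and 10), 3 with an offset of 16 (ANKRD1, MMP7 and CLDN2) and 15 with the filter at percentile 60 (5 and 10). It stayed at 0 with all 8 arrays, without the treatment term, with quantile normalization, with no filter and with the mean over probe sets, where the counts at an unadjusted p under 0.05 were 92, 474, 795, 957 and 799. The 26 genes 1.5-fold higher in both treatments became 57 with no filter and 17 with the stricter filter, and the 51 lower became 102 with no filter. At 2-fold the 2 higher genes became 5 and 1 under these filters, and the 8 lower genes became 5 under the stricter filter. The share of the lower genes also lower in null DMSO cells, 17.6%, was 34.1% with quantile normalization and 43.1% with no filter. The share of the higher genes also higher there, 73.1%, lay between 56.1% and 79.2%. The cause of these shifts was not tested, apart from the filters, which change how many genes are counted. Under the alternatives, CDC42BPG was the only named gene whose mean changed sign, to 0.02 with quantile normalization. Of 174 list medians under the processing alternatives, 29 moved by more than the spread between the treatments, and 4 lists near 0 changed sign: unfolded protein response, NF-kB cytokines, adhesion and junctions, and metallothioneins. The median stayed between 0.31 and 0.36 for ribosome biogenesis, 0.15 and 0.22 for YAP and TAZ targets, -0.36 and -0.31 for cholesterol synthesis and -0.26 and -0.10 for the interferon response. With 1 treatment alone, 23 of 58 list medians moved. With 1 array for each treatment and time, leaving out an array leaves 1 treatment, so the DMSO and PT2399 values given throughout are the values without the other. Time was matched within treatment in the fit. No paired analysis was possible by replicate number, because the labels carry none. The median SE was 0.139 on the 4 parental arrays and 0.274 in the model of 8, which also pools the spread of the null arrays.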
